A study of Mus musculus with 12 samples.

Results

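The knockdown of MOF was made in resting macrophages and in macrophages exposed to lipopolysaccharide (LPS), and what is described here is how far its effect on each gene depended on that exposure. The measure is a difference of differences, the log2 fold change of shMOF over shCTRL at LPS 3 h minus the same log2 fold change in unstimulated cells. It was taken for every gene whose mean normalized count reached 10, which left 12994 of the 14264 genes in the authors' deposited tables. A positive difference means that the knockdown effect was higher (less negative or more positive) in LPS-treated cells, and a negative one that it was lower.

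The cells were mouse bone marrow-derived macrophages in 4 groups of 3 libraries. The groups were a control hairpin without stimulation (shCTRL_LPS0), a MOF hairpin without stimulation (shMOF_LPS0), the control hairpin with LPS at 100 ng/ml for 3 h (shCTRL_LPS3) and the MOF hairpin with the same LPS treatment (shMOF_LPS3). All groups carried a hairpin, and the labels give the control as wild type and name no strain, sex, age or number of animals. The labels name a single MOF hairpin and no rescue, so off-target effects and MOF depletion cannot be told apart. The libraries are numbered within groups but not said to come from separate animals or cultures, so each p-value measures only the spread between these libraries. Levels per library are not given in the files used here, so effects are printed with their standard error (SE) and not sample by sample.

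MOF, encoded by Kat8, is a lysine acetyltransferase that acts in the MSL and NSL complexes, is best known for acetylating histone H4 at lysine 16, and also acetylates proteins other than histones. LPS binds TLR4 on macrophages and within hours turns on genes of inflammation through NF-kB, AP-1 and interferon regulatory factors, while inhibitors of the same pathway are induced as feedback. LPS also slows the division of macrophages.

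All 10 macrophage markers examined were measured, with mean normalized counts from 1233 to 259735. Of 9 neutrophil, 5 progenitor, 5 dendritic, 5 lymphocyte and 6 stromal, endothelial or erythroid markers, 3, 4, 2, 0 and 4 had a row in the tables, so that no lymphocyte marker of this set had one. Among markers with a row, the highest mean normalized count was 3255 for neutrophil, 998 for progenitor and 133 for dendritic markers. It was 559 for stromal, endothelial or erythroid markers. Depth per library is unknown, and mean normalized counts of the genes tested had a median of 570.6. In bulk RNA, fewer cells in a given state and less RNA per cell cannot be told apart.

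The knockdown effect differed between the states for 3977 genes (30.6% of those tested), at an adjusted p (Benjamini-Hochberg over the 12994 genes) under 0.05. It was higher at LPS 3 h for 2363 genes (18.2%) and lower for 1614 (12.4%). The differences were mostly modest, with medians of 0.43 among genes called higher and -0.44 among genes called lower, and 246 and 145 of them reached 2-fold. Over all genes the median difference was 0.01 and the median SE of a difference was 0.12. An empirical null, which widens the error to fit the bulk of genes, called 270 higher and 65 lower, and a null of a difference of at most 0.25 called 743 and 310.

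The form of the dependence varied. With the knockdown 23.2% of the genes rose and 19.4% fell in unstimulated cells, and 29.8% rose and 21.3% fell at LPS 3 h, in the authors' deposited tables. Of the 3977 genes with a called difference, 1570 (39.5%) were called at LPS 3 h only and 909 (22.9%) unstimulated only. In 501 (12.6%) the effect had the same sign and was larger at LPS 3 h, and in 316 (7.95%) it had the same sign and was smaller. A further 551 genes (13.9%) were called in both states with opposite signs, 339 of them falling in resting cells and rising at LPS 3 h and 212 the other way. The other 130 were called in neither state.

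A call in 1 state alone did not by itself mean a called difference. Of 4880 genes called in only 1 state in the authors' deposited tables, 2401 (49.2%) had no called difference. In turn, 1368 of the 3645 genes called in both states differed in the size or sign of the effect, and 2277 had no called difference. Across genes the effects in the 2 states had a Pearson r of 0.49 and a Spearman rho of 0.43, with no libraries shared between the comparisons, and genes are not independent replicates.

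**Figure D1:**
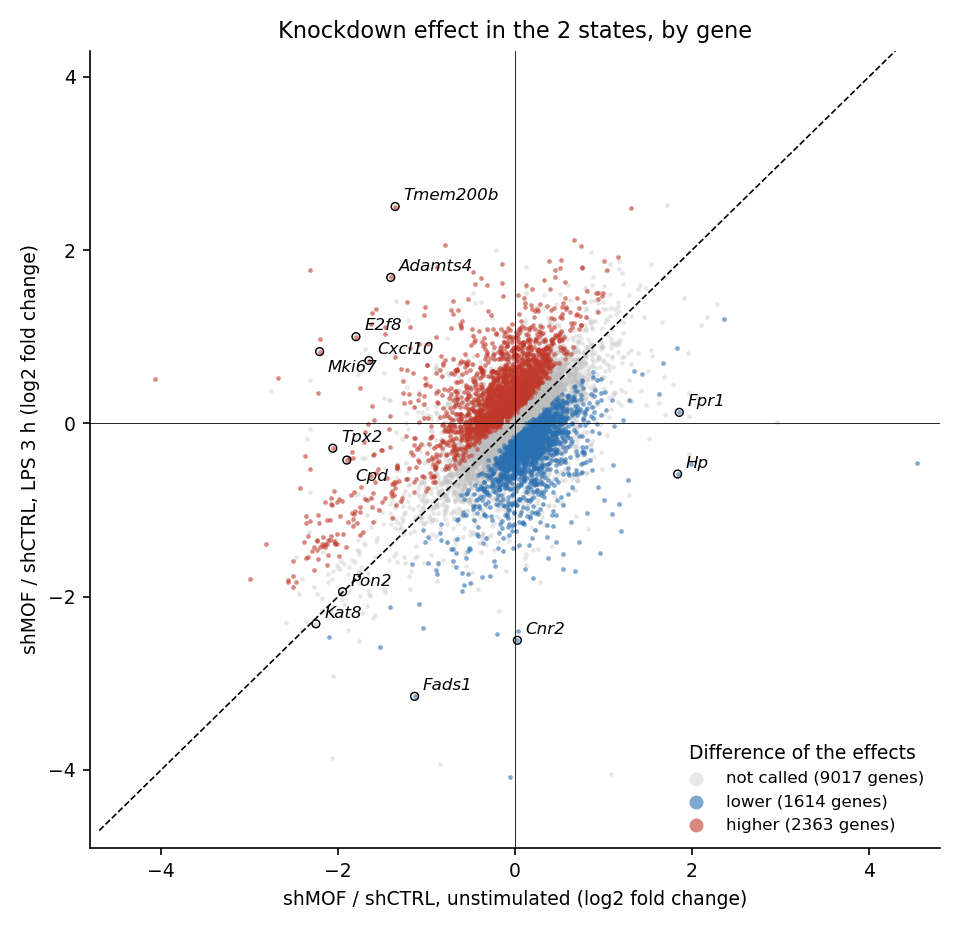
Knockdown effect of each of 12994 genes in unstimulated cells (horizontal axis, log2 fold change of shMOF over shCTRL) and at LPS 3 h (vertical axis, same unit), with the dashed line marking equal effects. Red points are the 2363 genes whose effect was called higher at LPS 3 h, blue points the 1614 called lower and grey points the 9017 not called. Mki67 and E2f8 lie at the upper left, with opposite effects in the 2 states, and Kat8 and Pon2 lie close to the line.

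Each pattern has clear examples. Among genes called at LPS 3 h only, the 3 with the smallest p of the difference were Vav3, Stat5a and Sh3bgrl2. Vav3, which encodes an exchange factor for small GTPases, had a difference of 0.97 (SE 0.07). Stat5a, which encodes a transcription factor of cytokine signalling, had 0.92 (SE 0.07) and Sh3bgrl2 1.15 (SE 0.09). Exons of Stat5a overlap those of Stat3 on the opposite strand, and whether counting used strand is not stated. Vopp1, the actin nucleator gene Spire1 and the RNA-binding protein gene Mex3c were called in resting cells only. Their unstimulated effects were -0.72, -0.80 and -0.67 in the authors' deposited tables, and their differences were 0.77, 0.76 and 0.78 (SE 0.08 each). A state without a call may still hold an effect. Cpd, which encodes carboxypeptidase D, shrank in effect from -1.90 (SE 0.05) to -0.42 (SE 0.04) in the authors' deposited tables (difference 1.48, adjusted p = 5.76e-122). The nuclear lamina gene Tmpo and the LIM-domain gene Pdlim5 shrank likewise, with differences of 1.24 (SE 0.09) and 0.96 (SE 0.07). Syne3, a nuclear envelope gene, and the heparan sulfate proteoglycan gene Sdc4 grew from 0.18 and 0.40 to 1.36 and 1.22 in the authors' deposited tables. Slc44a1, a choline transporter gene, turned from -0.50 (SE 0.04) to 0.62 (SE 0.04) in the authors' deposited tables (difference 1.12, adjusted p = 3.15e-81). Among the genes called in neither state, Ints3 (-0.25), Fam178a (0.34) and Dennd6a (-0.22) had the smallest p of the difference, all with SE between 0.07 and 0.11.

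The depletion itself did not depend detectably on LPS. Kat8 (ENSMUSG00000030801.10, chromosome 7 from 127912516 to 127925837 of GRCm38, plus strand) stood at 0.21-fold of control unstimulated and 0.201-fold at LPS 3 h in the authors' deposited tables. Its difference was -0.06 (SE 0.17, 95% interval -0.39 to 0.27, adjusted p = 0.818). Its last exon overlaps Prss8 on the opposite strand. Of its 11 partners in the MSL and NSL complexes, which together with Kat8 make a list of 12, Msl3 was called higher with 0.28 (SE 0.07). The NSL genes Hcfc1 and Phf20 were called lower with -0.36 (SE 0.09) and -0.24 (SE 0.09). Over the list of 12 these are 8.33% higher and 16.7% lower, beside 18.2% and 12.4% of all genes. Prdx1 (chromosome 4 from 116685544 to 116700822, plus strand), which encodes the peroxidase in the title of the series, had a difference of 0.11 (SE 0.10, 95% interval -0.09 to 0.32, adjusted p = 0.443).

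Among genes with a mean normalized count of 50 or more and a named gene symbol, the 12 largest called rises of the knockdown effect ran from 3.86 down to 2.06. Mki67 (ENSMUSG00000031004.7), the proliferation marker Ki-67, went from 0.216-fold to 1.78-fold of control in the authors' deposited tables, a difference of 3.04 (SE 0.10, adjusted p = 7.61e-202). E2f8 (ENSMUSG00000046179.17), a repressor of the E2F family, went from 0.287-fold to 2-fold of control in the authors' deposited tables, a difference of 2.80 (SE 0.14, adjusted p = 3.36e-91). These 2 genes had the smallest p among opposite effects. Cxcl10 (ENSMUSG00000034855.13), a chemokine of the interferon response, went from 0.318-fold to 1.65-fold in the authors' deposited tables (difference 2.38, SE 0.32, adjusted p = 6.57e-12). The matrix protease gene Adamts4 differed by 3.09 (SE 0.46), the homeobox gene Lhx2 by 2.62 (SE 0.49), Slfn9, an interferon-inducible Schlafen gene, by 2.06 (SE 0.21), and the potassium channel gene Kcna3 by 2.06 (SE 0.25). Reads of Slfn9 and of Bcl2a1a may be shared with near-identical copies, and exons of Adamts4, E2f8 and Cxcl10 overlap those of other genes on the opposite strand.

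Several of these large rises rest on a poorly measured resting effect. For Nos2, inducible nitric oxide synthase, the difference of 3.18 had an SE of 1.13 and a 95% interval from 0.97 to 5.40, and 99.1% of its error variance came from the unstimulated comparison. The same held for Tmem200b, a transmembrane protein gene (3.86, SE 1.46, 98.4%), the GTPase gene Gem (2.89, SE 0.75, 99.0%), the survival gene Bcl2a1a (2.50, SE 0.97, 98.9%) and the vasodilator peptide gene Adm (2.11, SE 0.67, 93.7%). Their unstimulated effects were not called in the authors' deposited tables, so only their LPS effect is well determined. For Adamts4 and Kcna3 the unstimulated comparison gave 98.0% and 88.3% of the error variance. That effect was called for Adamts4 and not for Kcna3 in the authors' deposited tables.

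By the same rule, the 12 largest called drops ran from -2.53 to -1.44. Cnr2, the cannabinoid receptor of immune cells, was at 1.02-fold of control unstimulated and 0.176-fold at LPS 3 h in the authors' deposited tables, a difference of -2.53 (SE 0.46, adjusted p = 5.36e-07). Fads1, the desaturase that makes arachidonic acid, was already at 0.455-fold in resting cells and reached 0.113-fold at LPS 3 h in the authors' deposited tables (difference -2.02, SE 0.13, adjusted p = 1.93e-52). Hp, haptoglobin, went from 3.57-fold to 0.666-fold and Fpr1, a receptor for bacterial formyl peptides, from 3.62-fold to 1.09-fold in the authors' deposited tables. Their differences were -2.42 (SE 0.50) and -1.73 (SE 0.28), with 87.0% and 86.8% of the error variance from the unstimulated comparison. The NAD glycohydrolase gene Cd38 differed by -2.46 (SE 0.84), but 93.2% of that error variance came from the unstimulated comparison, where its effect was not called in the authors' deposited tables. The phosphodiesterase gene Gdpd2 differed by -2.46 (SE 0.61), Trem3 by -1.78 (SE 0.61), the interferon-induced gene Ifitm1 by -1.67 (SE 0.29) and the receptor gene Gpr31b by -1.58 (SE 0.43). Oxld1 (-1.53, SE 0.30), the lysophosphatidic acid receptor gene Lpar5 (-1.45, SE 0.31) and the anthrax toxin receptor gene Antxr1 (-1.44, SE 0.32) completed this group.

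**Figure D2:**
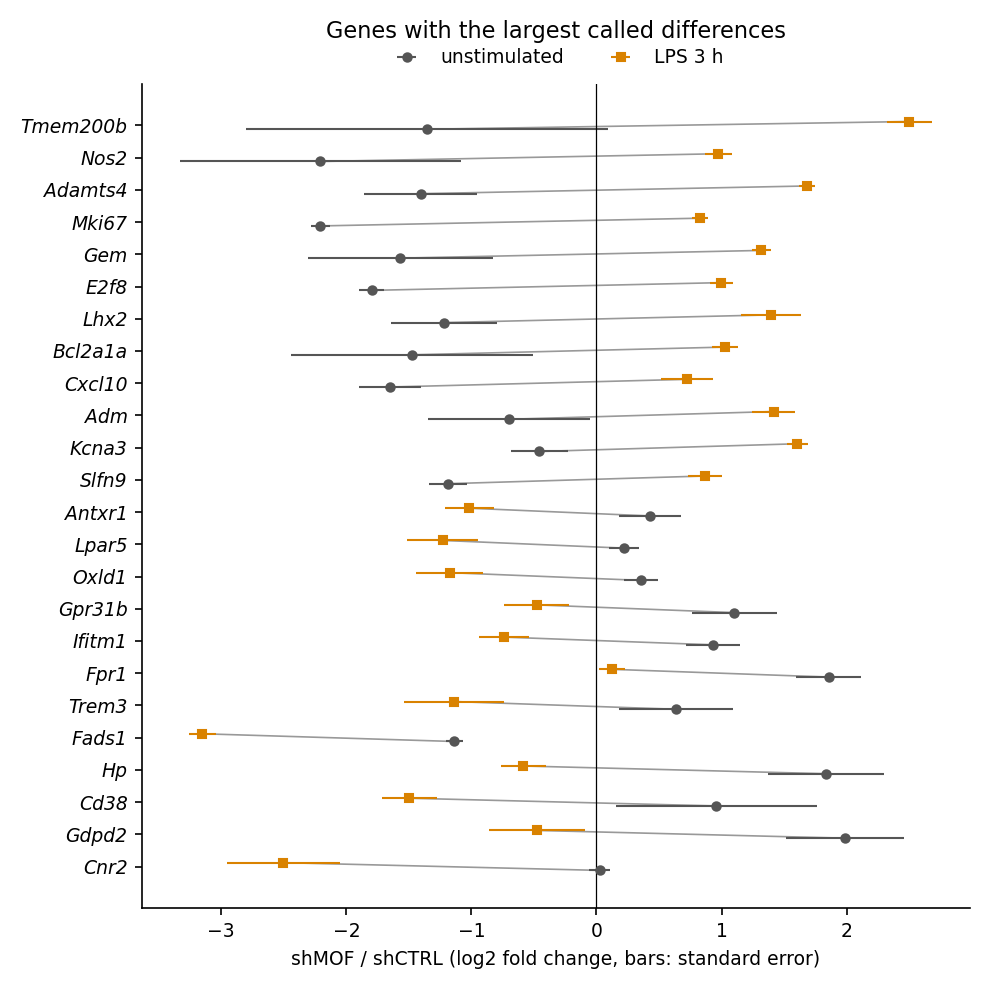
The 12 largest called differences in each direction among named genes with a mean normalized count of 50 or more, with the knockdown effect (horizontal axis, log2 fold change of shMOF over shCTRL) of each gene unstimulated (grey circles) and at LPS 3 h (orange squares), and bars of 1 SE. Mki67 and E2f8 have short bars in both states, while Tmem200b, Nos2 and Bcl2a1a have the widest unstimulated bars.

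Most mitotic genes fell less with the knockdown at LPS 3 h than in resting cells. Of 205 cell cycle, replication, repair and p53 genes tested, 101 were called higher and 13 lower (49.3% and 6.34%, beside 18.2% and 12.4% of all genes), with a median difference of 0.39. Mitotic genes, which build and run the spindle and kinetochore, had 53 of 78 called higher and 2 lower, and their median effect went from -2.03 to -1.35 in the authors' deposited tables. In 71 of the 78 the effect was smaller in size at LPS 3 h, yet 71 still fell at LPS 3 h in the authors' deposited tables, against 77 in resting cells. Under the empirical null 10 mitotic genes were called higher and 0 lower.

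The attenuation was uneven within mitosis. After Mki67, the smallest p belonged to Tpx2, a spindle assembly factor, with 1.77 (SE 0.13), Nusap1, which bundles microtubules, with 1.29 (SE 0.12), the checkpoint gene Mad2l1 with 1.14 (SE 0.12), the kinetochore motor gene Cenpe with 1.11 (SE 0.13) and the kinase gene Melk with 1.49 (SE 0.18). Cks2, a CDK-binding subunit, went from -1.10 to 0.27 in the authors' deposited tables (difference 1.37, SE 0.18), and Foxm1, the transcription factor of the G2/M programme, differed by 1.22 (SE 0.16). In contrast Cdk1, the kinase that drives mitotic entry, fell alike in both states, by -1.66 (SE 0.08) and then -1.73 (SE 0.09) in the authors' deposited tables, a difference of -0.07 (95% interval -0.31 to 0.16). Kif20b, a kinesin of cytokinesis, and the kinase gene Aurka had differences of 0.05 with 95% intervals of -0.30 to 0.39 and -0.36 to 0.45. The 2 members called lower were Incenp, of the chromosomal passenger complex, and the phosphatase gene Cdc25b, both at -0.33 (SE 0.09 and 0.13).

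Mitotic promoters share a short element, the cell cycle homology region (CHR), that is bound by the DREAM and MuvB complexes. Promoter windows from RefSeq (GRCm38.p6, 250 bases before to 50 after the start) were matched for 9337 of the 12994 genes. The letters TTTGAA, on either strand, were in 43 of 62 mitotic windows (69.4%) and in 11.9% of all windows. Of the 43 members with a match 28 were called higher (median difference 0.55, range -0.16 to 3.04), and of the 19 without one 13 were (median 0.72). The windows of Mki67 (chr7:135716330-135716629, minus strand), Kif20b (chr19:34922108-34922407, plus strand) and Aurka (chr2:172370521-172370820, minus strand) are printed because all hold the element while the difference was the widest of the list for Mki67 and was not called for the other two, at 0.05 each. Each is written on the strand of its gene, and capitals mark TTTGAA and CCAAT on either strand. In Mki67 the CHR letters begin at -116 and -98, in Kif20b at 8 and 14 and in Aurka at 33, counted from 1 at the first transcribed base with no position 0.
Mki67: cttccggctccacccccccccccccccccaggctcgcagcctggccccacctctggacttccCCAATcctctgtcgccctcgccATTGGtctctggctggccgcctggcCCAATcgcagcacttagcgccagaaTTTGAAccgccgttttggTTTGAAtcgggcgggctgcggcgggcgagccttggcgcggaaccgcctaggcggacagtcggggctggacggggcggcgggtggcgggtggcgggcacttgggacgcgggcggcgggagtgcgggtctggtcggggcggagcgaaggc
Kif20b: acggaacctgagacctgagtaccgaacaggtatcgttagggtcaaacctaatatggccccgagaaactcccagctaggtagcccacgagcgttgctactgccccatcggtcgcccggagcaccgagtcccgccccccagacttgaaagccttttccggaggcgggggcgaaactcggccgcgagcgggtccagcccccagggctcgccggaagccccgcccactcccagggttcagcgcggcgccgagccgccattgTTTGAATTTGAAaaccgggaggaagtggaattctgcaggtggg
Aurka: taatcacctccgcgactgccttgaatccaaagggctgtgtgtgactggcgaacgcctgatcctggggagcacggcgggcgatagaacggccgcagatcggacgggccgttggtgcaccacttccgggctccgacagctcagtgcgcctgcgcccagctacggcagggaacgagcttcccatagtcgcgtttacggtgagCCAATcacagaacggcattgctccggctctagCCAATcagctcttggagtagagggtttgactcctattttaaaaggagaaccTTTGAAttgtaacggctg
Mki67, with 2 CHR matches and 3 CCAAT matches, had a difference of 3.04. Kif20b, with 2 adjoining CHR matches, and Aurka, with 1 CHR match and 2 CCAAT matches, had 0.05 each. The windows of Melk and Cks2, whose differences were 1.49 and 1.37, hold no TTTGAA.

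DNA replication and the step into S phase showed the same direction. Of 42 replication genes 22 were called higher and 1 lower, with a median difference of 0.35. Under the empirical null 0 of the 42 were called. Among the 22 were the clamp loader gene Rfc3 (0.71, SE 0.11), the polymerase gene Pola1 (0.74, SE 0.13), the sliding clamp gene Pcna (0.50, SE 0.10), the helicase gene Mcm6 (0.54, SE 0.11), Mcm10 (0.80, SE 0.16) and thymidine kinase, Tk1 (0.78, SE 0.17). E2F letters (TTTCCCGC or TTTGGCGC, either strand) were in 12 of 34 replication windows and in 3.18% of all windows. Of 28 G1/S and E2F genes 11 were called higher and 2 lower, with a median difference of 0.22. Ccne1, cyclin E1, went from -1.59 to 0.04 in the authors' deposited tables (difference 1.64, SE 0.17), Cdk6 differed by 0.85 (SE 0.06), the p107 gene Rbl1 by 1.26 (SE 0.13) and cyclin D2, Ccnd2, by 1.03 (SE 0.21). Cyclin D1, Ccnd1, went the other way with -0.61 (SE 0.13), as did the p130 gene Rbl2 with -0.30 (SE 0.09).

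Among 32 repair genes 10 were called higher and 0 lower (median difference 0.31), and under the empirical null 0 were called. Atm, the kinase that signals double-strand breaks, differed by 0.68 (SE 0.10), Rad18, of damage bypass, by 0.89 (SE 0.14), and the Fanconi genes Fancm and Fancd2 by 1.16 (SE 0.18) and 1.02 (SE 0.21). The p53 gene and its targets went both ways, with 6 of 26 higher and 8 lower. These are 23.1% and 30.8%, beside 18.2% and 12.4% of all genes. The stress gene Sesn1 went from 0.75 to -0.47 in the authors' deposited tables (difference -1.22, SE 0.14), whereas Gadd45a went from -0.52 to 0.42 (difference 0.94, SE 0.12). Cdkn1a, the CDK inhibitor p21, differed by 0.58 (SE 0.09).

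**Figure D3:**
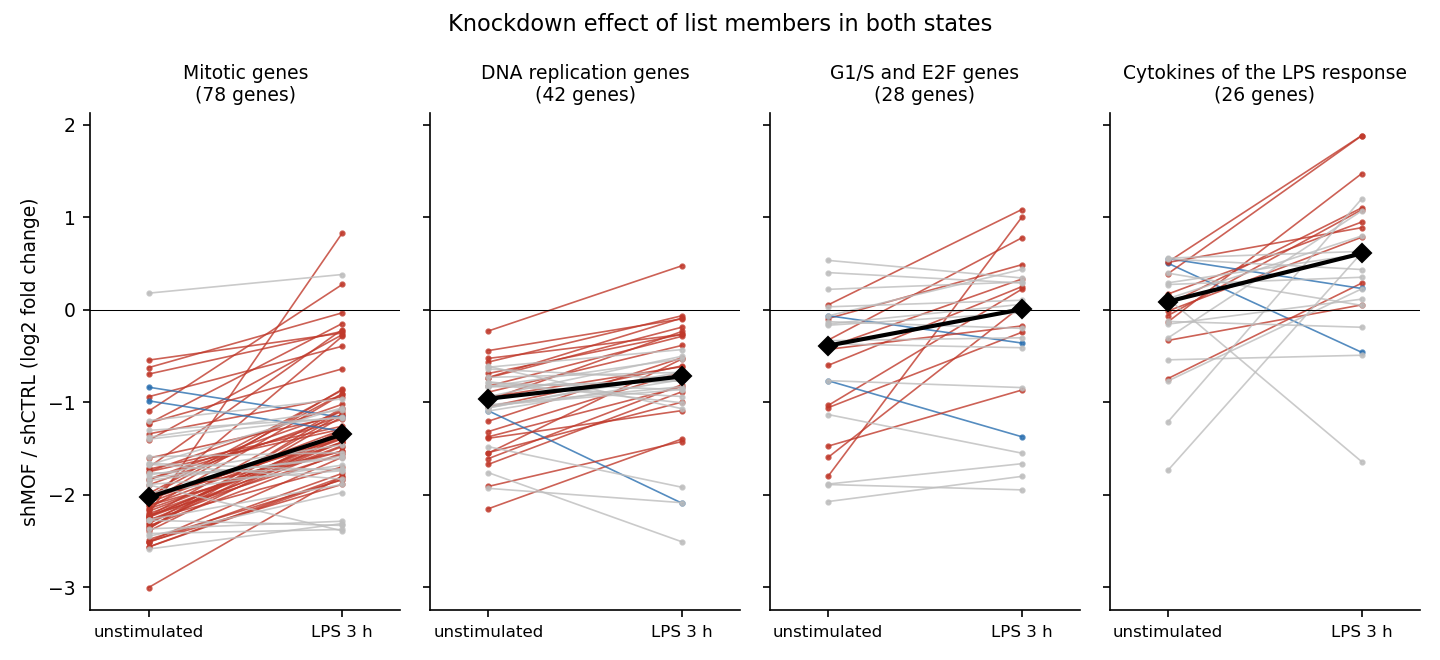
Knockdown effect (vertical axis, log2 fold change of shMOF over shCTRL) of each member of 4 lists, unstimulated and at LPS 3 h, with a line per gene coloured red where the difference was called higher, blue where called lower and grey where not called. Black diamonds are list medians, which for mitotic genes go from -2.03 to -1.35 and for cytokines from 0.09 to 0.61.

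Genes that LPS is known to induce formed the other large block, and their knockdown effect was more positive at LPS 3 h. Of 83 cytokine, chemokine and other effector genes 35 were called higher and 6 lower (42.2% and 7.23%), with a median difference of 0.35. Under the empirical null 4 cytokine, 2 chemokine and 2 other effector genes were called higher and 0 lower. Of 94 transcription regulators of the LPS response 43 were called higher and 11 lower (45.7% and 11.7%), with a median difference of 0.24. In the receptor and kinase layer above them 14 of 43 were called higher and 5 lower (32.6% and 11.6%), and the median was 0.07. After correction for base composition, gene span and mean level its kinase list of 25 genes went from 9 higher and 4 lower to 5 and 6, so the direction of this layer depends on that correction.

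At the receptor, Ly96, which holds LPS on TLR4, differed by 0.37 (SE 0.11), the adaptor genes Ticam2 and Tollip by 0.36 (SE 0.10) and 0.33 (SE 0.07), and the kinase gene Irak4 by -0.22 (SE 0.08). In this list of 18 genes 5 were called higher and 1 lower, or 2 and 4 after the same correction. Below it Ripk2, a kinase adaptor of innate receptors, went from -0.08 to 0.95 in the authors' deposited tables (difference 1.03, SE 0.09). Tab1 and Tab2, partners of the kinase TAK1, went apart, with -1.05 (SE 0.14) and 0.39 (SE 0.08), and the ribosomal S6 kinase gene Rps6ka1 had -0.65 (SE 0.08).

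The NF-kB list had the highest share called higher of the lists with at least 5 genes tested. Of its 11 subunit and inhibitor genes 8 were called higher and 0 lower, and all 11 differences were positive (median 0.38); 4 were called under the empirical null. Rel had the widest difference, 0.80 (SE 0.08), followed by the inhibitor gene Nfkbib (0.66, SE 0.06), the atypical inhibitor gene Nfkbiz (0.51, SE 0.12) and the inhibitor gene Nfkbia (0.48, SE 0.04, adjusted p = 7.37e-26). The subunit genes Nfkb1, Nfkb2 and Rela differed by 0.40, 0.38 and 0.27 (SE 0.05, 0.07 and 0.08). Of 20 feedback regulators 12 were called higher and 2 lower, led by the A20-binding protein genes Tnip3 (1.08, SE 0.11) and Tnip1 (0.56, SE 0.06) and by Tnfaip3, which encodes A20 (0.73, SE 0.09). The RNA-decay gene Zfp36l1 and the LIM-domain gene Pdlim2 were called lower, with -0.61 (SE 0.11) and -0.50 (SE 0.10).

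Immediate-early factors split. Of 28 such genes 12 were called higher and 5 lower (42.9% and 17.9%, beside 18.2% and 12.4% of all genes). Klf6 (0.77, SE 0.08), the AP-1 subunit gene Jund (0.57, SE 0.09), Maff (1.01, SE 0.18) and Fosb (1.254, SE 0.27) rose in effect. Fos (-0.59, SE 0.10), the clock gene Per1 (-0.89, SE 0.16), the nuclear receptor gene Nr4a1 (-0.91, SE 0.18) and Klf2 (-0.65, SE 0.16) dropped. MAP kinase phosphatases split in the same way, with 7 of 17 higher and 3 lower (41.2% and 17.6%). Dusp14 and Dusp2 differed by 1.67 (SE 0.31) and 1.47 (SE 0.15), while Dusp6, which acts on ERK, went from 0.43 to -0.80 in the authors' deposited tables (difference -1.22, SE 0.19).

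Of 26 cytokine genes 10 were called higher and 2 lower, with a median difference of 0.53. Tnf (ENSMUSG00000024401.14) stood at 1.04-fold of control unstimulated and 2.14-fold at LPS 3 h in the authors' deposited tables, a difference of 1.04 (SE 0.09, adjusted p = 5.59e-27). The co-stimulatory ligand gene Tnfsf9 differed by 1.36 (SE 0.11), Il15, a growth factor of lymphocytes, by 1.14 (SE 0.13), the macrophage growth factor gene Csf1 by 0.80 (SE 0.10), the suppressive cytokine gene Il10 by 0.78 (SE 0.14) and Il1a by 1.03 (SE 0.25). Vegfa, the angiogenic factor, went the other way, from 0.50 to -0.46 in the authors' deposited tables (difference -0.96, SE 0.14). For Il6 the difference of 2.41 had an SE of 1.22 and did not pass (adjusted p = 0.123), and for Il12b and Il1b it was 0.99 (SE 1.57) and -0.35 (SE 0.19), also not called. The unstimulated comparison gave 99.3% and 99.4% of the error variance of Il6 and Il12b.

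Of 23 chemokine genes 8 were called higher and 0 lower (median difference 0.51). Besides Cxcl10 these were Cxcl1 (1.22, SE 0.35), Ccl4 (1.08, SE 0.14), Ccl7 (1.03, SE 0.22), Ccl2 (0.81, SE 0.20), Cxcl2 (0.75, SE 0.15), Ccl3 (0.52, SE 0.10) and Ccl5 (0.51, SE 0.12), all attractants of monocytes, neutrophils or lymphocytes. They reached this by different routes. Ccl3 was above control in both states in the authors' deposited tables, at 0.63 and 1.15. Ccl4 went from 0.22, not called, to 1.30 in the authors' deposited tables. Of the monocyte attractants, Ccl7 was below control in both states in the authors' deposited tables, at -1.82 and -0.79. Ccl2 went from -1.09 to -0.28 in the authors' deposited tables, the latter not called.

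Further effectors had 17 of 34 called higher and 4 lower. Prostaglandin synthase, Ptgs2, went from -1.27 to 0.49 in the authors' deposited tables (difference 1.76, SE 0.32). The survival gene Bcl2a1b differed by 1.58 (SE 0.13), the lectin receptor gene Clec4e by 0.57 (SE 0.08), the cystine transporter gene Slc7a11 by 0.98 (SE 0.18) and the urokinase receptor gene Plaur by 0.70 (SE 0.11). The matrix protease gene Mmp14 was called lower, with -0.81 (SE 0.15), as was Thbs1, which encodes thrombospondin, with -0.88 (SE 0.19).

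Letters of inducible elements were counted in the promoter windows of these products. The NF-kB type letters (GGG, any 2 bases, TTTCC), on either strand, were in 4 of 16 chemokine windows, 2 of 18 cytokine windows, 0 of 25 windows of the further effectors and 1.76% of all windows. They were in 2.44% of windows of genes called higher and 1.23% of those called lower. TATAAA was in 7 of 16 chemokine, 6 of 18 cytokine and 8 of 25 further effector windows and in 6.92% of all. Csf1 (chr3:107760420-107760719, minus strand) and Cxcl10 (chr5:92348840-92349139, minus strand) are printed as a cytokine window with the NF-kB letters and as the window of the chemokine with the widest called difference. Capitals mark matches to the NF-kB letters, to the interferon response letters (GAAA, any 2 bases, GAAA), to the AP-1 letters TGANTCA and to CCAAT, on either strand.
Csf1: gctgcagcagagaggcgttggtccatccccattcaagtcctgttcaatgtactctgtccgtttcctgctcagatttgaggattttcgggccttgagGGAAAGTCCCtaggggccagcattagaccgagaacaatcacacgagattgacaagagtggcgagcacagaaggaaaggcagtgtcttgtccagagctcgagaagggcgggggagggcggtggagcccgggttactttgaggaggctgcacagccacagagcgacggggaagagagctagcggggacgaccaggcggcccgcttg
Cxcl10: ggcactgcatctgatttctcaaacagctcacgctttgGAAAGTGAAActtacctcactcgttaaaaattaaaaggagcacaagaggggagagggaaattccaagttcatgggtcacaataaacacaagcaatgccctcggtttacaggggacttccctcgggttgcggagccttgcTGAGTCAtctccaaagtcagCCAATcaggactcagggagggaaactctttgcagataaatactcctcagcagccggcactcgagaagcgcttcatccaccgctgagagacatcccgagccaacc
In Csf1 the NF-kB match begins at -154. In Cxcl10 the interferon response match begins at -213, the AP-1 match at -74 and the CCAAT match at -54. The window of Tnf holds a TATAAA match at -29 and none of the NF-kB letters, and that of Ccl3 holds none of the motifs searched. Sites that differ from the searched letters were not counted. A window without a match, such as that of Cxcl10 for the NF-kB letters, may therefore still hold an NF-kB site.

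Interferon-related genes were called about as often as genes at large. Of 84 interferon, antigen presentation and inflammasome genes 13 were called higher and 9 lower (15.5% and 10.7%, near the 18.2% and 12.4% of all genes), and the median difference was 0.02. Of 40 interferon-stimulated genes 9 were called higher and 2 lower. The ubiquitin ligase genes Trim25 and Trim21 differed by 0.44 (SE 0.08) and 0.52 (SE 0.13), the ISG15 protease gene Usp18 by 0.73 (SE 0.18), the RNA sensor gene Ifih1 by 0.43 (SE 0.11), the tether gene Bst2 by -0.53 (SE 0.13) and the nucleic acid sensor gene Zbp1 by -0.64 (SE 0.21). The interferon response letters were in 14 of 29 windows of this list and in 3.26% of all windows. Of 19 interferon regulatory factor, STAT and JAK genes 5 were called higher and 1 lower. Jak1 and Jak2, the kinases of cytokine receptors, differed by 0.48 (SE 0.05) and 0.60 (SE 0.07) and Irf1 by 0.39 (SE 0.10), while Irf7 differed by -0.46 (SE 0.17). Guanylate-binding and IRG GTPase genes, which act on intracellular microbes, had 2 of 14 called higher and 0 lower, Gbp5 (0.99, SE 0.25) and Irgm1 (0.42, SE 0.14). Inflammasome genes had 2 of 13 higher and 4 lower, with the DNA sensor gene Aim2 at 0.51 (SE 0.10) and the adaptor gene Pstpip1 at -0.42 (SE 0.06).

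Of 11 genes of MHC class II presentation 4 were called lower and 1 higher (median -0.33), or 1 lower and 0 higher both after the correction for gene properties and with SE widened by 25%. H2-Eb1, H2-Ab1 and H2-DMa went from 0.74, 0.37 and 0.57 to -0.02, -0.08 and 0.05 in the authors' deposited tables, and their differences were -0.75 (SE 0.27), -0.46 (SE 0.17) and -0.52 (SE 0.16). Of 17 class I and immunoproteasome genes 3 were called lower and 0 higher (17.6% lower, near the 12.4% of all genes), and 1 lower at a threshold of 0.01. Histocompatibility genes have near-identical copies, so their reads may be shared between members.

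Of 29 macrophage identity genes 10 were called lower and 5 higher (median -0.14). These are 34.5% and 17.2%, beside 12.4% and 18.2% of all genes. The null of a difference of at most 0.25 left 2 lower and 2 higher, and the empirical null 0 and 0. Of the 10 macrophage markers examined above, 6 were called lower and 1 higher. The transcription factor gene Maf differed by -0.47 (SE 0.09), the scavenger receptor gene Marco by -1.02 (SE 0.19), the growth factor receptor gene Csf1r by -0.25 (SE 0.08), the F4/80 gene Adgre1 by -0.31 (SE 0.07) and Cx3cr1 by -0.65 (SE 0.18). The mannose receptor gene Mrc1 (0.63, SE 0.13), the galectin gene Lgals3 (0.54, SE 0.09) and Spi1, which encodes PU.1 (0.22, SE 0.07), were called higher. Among the markers of other cells, 2 of 4 tested neutrophil markers were called lower, Csf3r with -0.68 (SE 0.19) and Mmp9 with -0.52 (SE 0.21), and both are also made by macrophages. Of 6 progenitor, 3 dendritic, 4 lymphocyte and 10 stromal, endothelial or erythroid markers tested, 0, 1, 1 and 1 were called higher and 1, 0, 0 and 1 lower. The part of other cells in the differences was not tested.

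Immune G protein-coupled receptors had the highest share called lower of any list with at least 5 members tested, 12 of 31, with 3 higher and a median difference of -0.33. Besides Cnr2 and Gpr31b they included Gpr146 (-1.003, SE 0.13), the proton sensor gene Gpr65 (-0.76, SE 0.11), the prostaglandin receptor gene Ptger4 (-0.62, SE 0.11) and Gpr183, an oxysterol receptor gene (-0.59, SE 0.14). Gpr65 was above control unstimulated, at 0.56, and below it at LPS 3 h, at -0.20, in the authors' deposited tables. The nucleotide receptor gene P2ry2 went the other way, with 0.83 (SE 0.08). Under the empirical null 1 receptor gene of this list was called lower and 1 higher. Of 15 chemokine and chemoattractant receptors 6 were called higher and 4 lower, so that C5ar1, the receptor for complement C5a (0.33, SE 0.07), and Ccrl2 (0.58, SE 0.11) stood against Fpr1. Genes of alternative activation had 6 of 13 called higher and 0 lower, among them transglutaminase, Tgm2 (0.65, SE 0.08), and the nuclear receptor gene Pparg (0.40, SE 0.10).

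**Figure D4:**
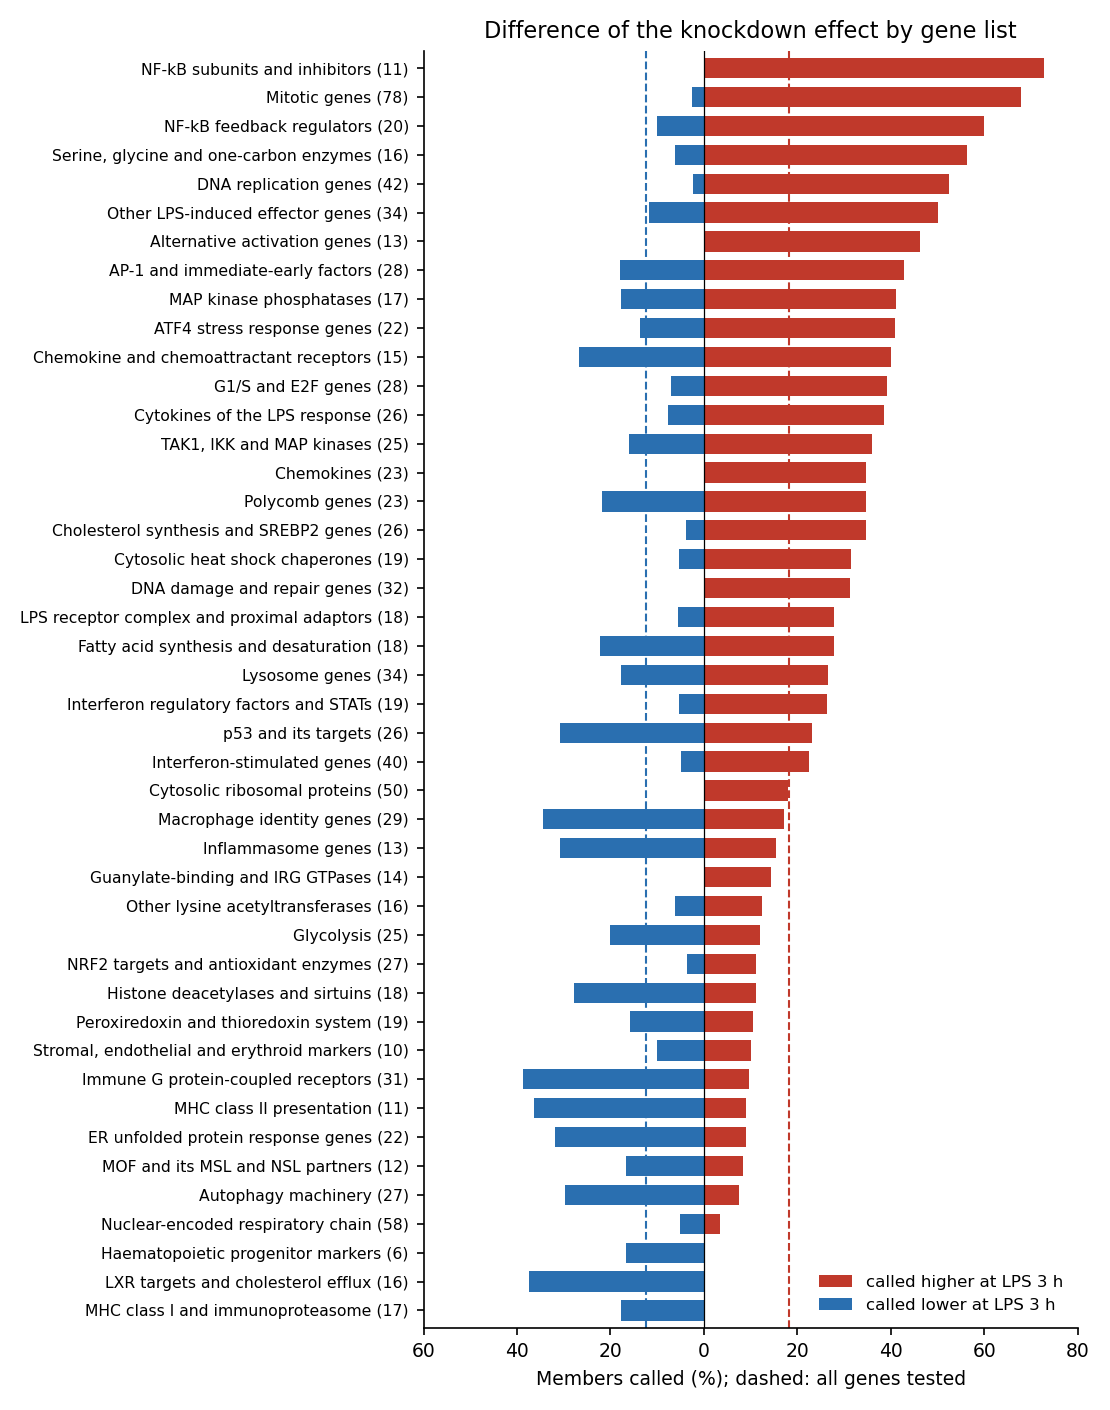
Share of members (horizontal axis, percent) whose knockdown effect was called higher (red, to the right) or lower (blue, to the left) at LPS 3 h, for each list with at least 5 genes tested, whose number is in brackets. Dashed lines mark the shares over all genes, 18.2% and 12.4%. NF-kB and mitotic lists reach furthest to the right and immune G protein-coupled receptors, LXR targets and MHC class II genes furthest to the left.

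Metabolic genes were called about as often as genes at large, with 28 of 157 higher and 19 lower and a median difference of 0.01. These shares, 17.8% and 12.1%, were near the 18.2% and 12.4% of all genes, but counts differed by pathway. Enzymes of serine, glycine and one-carbon metabolism, which feed nucleotide synthesis, had 9 of 16 called higher and 1 lower (median 0.43), and their median effect went from -0.64 to -0.07 in the authors' deposited tables. Phgdh, the entry enzyme of serine synthesis, went from -1.69 to -0.10 and Mthfd2, of the mitochondrial folate cycle, from -0.82 to 0.54 in the authors' deposited tables (differences 1.59, SE 0.22, and 1.37, SE 0.15). Gcsh, of the glycine cleavage system, went from -1.52 to -2.58 in the authors' deposited tables. With a difference of -1.06 (SE 0.15) it was the 1 member called lower. Tyms, called higher here, is also a member of the replication list.

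Cholesterol synthesis genes and LXR pathway genes differed in direction. Of 26 cholesterol synthesis and SREBP2 genes 9 were called higher and 1 lower, with the synthase gene Hmgcs1 at 0.61 (SE 0.08) and the sensor gene Scap at 0.44 (SE 0.07). Of 16 genes of the LXR pathway and cholesterol efflux 0 were called higher and 6 lower: Rxra (-0.73, SE 0.09), Scd2 (-0.82, SE 0.15), Nr1h3, which encodes LXR alpha (-0.42, SE 0.08), Rxrb (-0.37, SE 0.08), the exporter gene Abcg1 (-0.39, SE 0.10) and Lpcat3 (-0.19, SE 0.07). Under the empirical null 1 of them was called lower. Fatty acid genes went both ways, with the elongase genes Elovl6 (1.54, SE 0.19) and Elovl7 (1.23, SE 0.32) opposite to Fads1. Of 25 glycolysis genes 3 were called higher and 5 lower (12% and 20%, beside 18.2% and 12.4% of all genes). Among them the phosphofructokinase genes Pfkp (0.73, SE 0.07) and Pfkl (-0.46, SE 0.08) had opposite signs. Of 58 nuclear-encoded respiratory chain genes 2 were called higher and 3 lower, and all their differences lay between -0.26 and 0.44.

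Among 107 stress and antioxidant genes 19.6% were called higher and 13.1% lower, near the 18.2% and 12.4% of all genes. Within them the ATF4 and endoplasmic reticulum arms parted. Of 22 ATF4 response genes 9 were called higher and 3 lower, and 5 were called with opposite signs in the 2 states. The amino acid transporter genes Slc7a5 and Slc7a1 went from -1.01 and -0.67 to 0.44 and 0.61 in the authors' deposited tables, with differences of 1.45 (SE 0.21) and 1.28 (SE 0.13). Asparagine synthetase, Asns, differed by 0.77 (SE 0.16), Atf4 by 0.32 (SE 0.08) and Ddit4, an inhibitor of mTORC1, by -0.62 (SE 0.18). Of 22 unfolded protein response genes 7 were called lower and 2 higher, including the sensor genes Ern1 (-0.57, SE 0.10) and Eif2ak3 (-0.43, SE 0.13) and the chaperone gene Calr (-0.41, SE 0.07). Correction for base composition, gene span and mean level made that 11 lower and 0 higher. The null of a difference of at most 0.25 left 1 lower and 0 higher, and the empirical null 0 and 0. Cytosolic heat shock chaperones had 6 of 19 called higher and 1 lower, led by the HSP40 gene Dnaja2 (0.70, SE 0.08).

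The PRDX1 system showed no common shift. Of 19 peroxiredoxin and thioredoxin genes 2 were called higher and 3 lower (10.5% and 15.8%, beside 18.2% and 12.4% of all genes). Txnrd1, thioredoxin reductase, had a difference of 0.75 (SE 0.08), Txnip, the thioredoxin inhibitor, of -0.62 (SE 0.07), and Srxn1, which repairs peroxiredoxins, of 0.33 (SE 0.08). The other called genes were Sesn1 and Sesn2. Of 27 NRF2 targets and antioxidant enzymes 3 were called higher and 1, heme oxygenase (Hmox1), lower with -0.53 (SE 0.15). These are 11.1% and 3.70% of that list.

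Among 111 autophagy, lysosome and ribosomal protein genes 18.0% were called higher and 12.6% lower, near the 18.2% and 12.4% of all genes. Autophagy genes had 8 of 27 called lower and 2 higher, or 12 lower and 2 higher after the correction for gene properties. The empirical null left 1 lower and 1 higher. The cargo receptor genes Sqstm1 and Optn were the 2 called higher (0.62, SE 0.09, and 0.81, SE 0.11), whereas Nbr1, another cargo receptor gene, had -0.63 (SE 0.06), the initiating kinase gene Ulk1 -0.52 (SE 0.12) and Atg14 -0.51 (SE 0.11). Lysosome genes went both ways, with 9 of 34 higher and 6 lower, or 4 and 9 after that correction. The pump subunit gene Atp6v1a was at 0.43 (SE 0.04) and Tfeb, the master regulator of lysosome genes, at -0.64 (SE 0.12). Ribosomal protein genes had small differences of 1 sign: all 50 lay between 0.02 and 0.24, 9 were called higher, and 2 after that correction. At a threshold of 0.01 none of them was called.

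Chromatin regulators had 13 of 69 called higher and 13 lower, 18.8% each beside 18.2% and 12.4% of all genes. Suz12 and Ezh2, of Polycomb complex 2, differed by 0.64 (SE 0.07) and 0.83 (SE 0.16) and Pcgf5, of Polycomb complex 1, by 0.98 (SE 0.14). The chromobox genes Cbx6, Cbx2 and Cbx8 differed by -1.32 (SE 0.21), -1.01 (SE 0.36) and -0.82 (SE 0.32). The deacetylase gene Sirt1 went from -0.48 to 0.49 in the authors' deposited tables (difference 0.97, SE 0.10), while Hdac5 had a difference of -0.44 (SE 0.07), and of 18 deacetylase genes 2 were called higher and 5 lower, or 3 and 3 after the correction for gene properties. Among other acetyltransferases Hat1, which acetylates newly made histone H4, had 0.66 (SE 0.10), and 2 of 16 were called higher and 1 lower.

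Some large effects were alike in both states. Of 171 genes called in both states with a change of at least 2-fold in each, 169 had the same sign and 101 had no called difference. The 5 whose 95% interval lay most tightly around 0 were Pon2, Prkar2a, Entpd7, Pgm2l1 and Slc20a1. Pon2, a paraoxonase gene, stood at 0.259-fold and 0.26-fold of control in the authors' deposited tables, with a difference of 0.01 (95% interval -0.16 to 0.17). For Prkar2a, a regulatory subunit of protein kinase A, the interval was -0.11 to 0.19, for Entpd7 -0.21 to 0.20, for Pgm2l1 -0.25 to 0.19 and for the phosphate transporter gene Slc20a1 -0.23 to 0.25. All 5 fell in both states in the authors' deposited tables.

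Calls followed gene properties. The rule did not use GC share, span or exon number, but it set a minimum for the mean normalized count. Genes with AU-rich transcripts were more often called higher: by quintile of the GC share of the longest transcript, the share called higher went from 28.8% (lowest GC) to 10.8% (highest), and the share called lower from 5.17% to 18.9%. The median GC share was 46.3% for genes called higher, 52.5% for genes called lower and 49.4% for all. Longer genes were also more often called higher, 8.07% in the shortest quintile of gene spans and 26.5% in the longest, while calls of lower effects stayed between 9.88% and 14.4%. The median span was 33.6 kb for higher, 20.5 kb for lower and 21.1 kb for all genes, and the median number of exons 9, 8 and 7. Abundant genes gave more calls of higher effects, 3.77% in the lowest and 32.8% in the highest quintile of mean normalized count. Calls of lower effects were 3.89% in the lowest, 17.5% in the middle and 11.6% in the highest quintile. From the lowest to the highest quintile the median SE of the difference went from 0.46 to 0.07. Every call depends on the SE, so level and precision cannot be told apart here. In promoters the direction was reversed: 15.4% of genes in the lowest and 29.4% in the highest quintile of promoter GC were called higher. Library preparation, RNA quality and the share of unspliced RNA have no values here, and their part in these gradients was not tested.

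**Figure D5:**
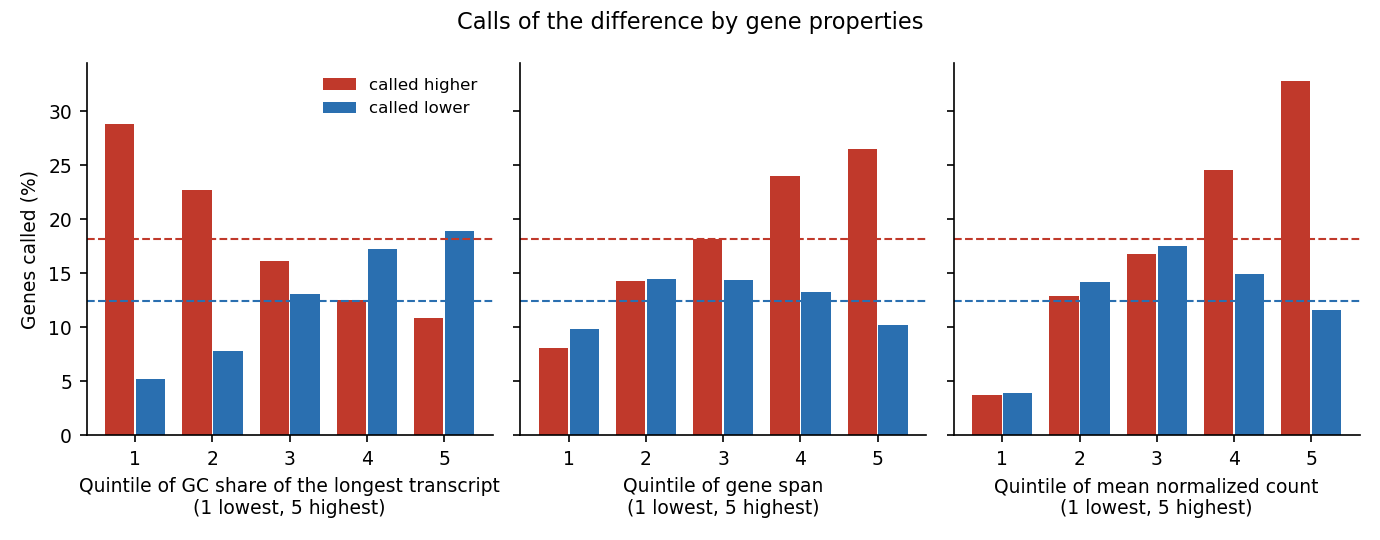
Share of genes (vertical axis, percent) called higher (red) or lower (blue) at LPS 3 h in quintiles of transcript GC share, gene span and mean normalized count, with dashed lines at the shares over all genes, 18.2% and 12.4%. Calls of higher effects fall with GC share, from 28.8% to 10.8%, and rise with span and level.

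A correction of each difference for these 3 properties left 1854 genes higher and 1646 lower, so that 52.97% of calls were higher, against 59.4% without it. It kept 74.0% of the 3977 calls. The correction itself ran from -0.17 to 0.31. That is less in size than the differences of Mki67, E2f8, Cxcl10 and Fads1, which are among the largest. It is not small beside the median called differences of 0.43 and -0.44.

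The X chromosome, on which MOF acts in male flies, had a median difference slightly above that of any autosome. Its 428 genes had a median of 0.0791, with 19.6% called higher and 5.84% lower. Over 12500 autosomal genes the median was 0.00498, with 18.1% and 12.7%. Medians of single autosomes ran from -0.06 on chromosome 17 to 0.0750 on chromosome 18, and the share called lower from 7.76% on chromosome 3 to 16.0% on chromosome 15, so the share called lower on X was below that of every autosome.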

How the data were processed

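RNA of 12 libraries was sequenced. The labels' protocol states a joint extraction and stranded mRNA libraries with paired reads of 100 bp. DESeq2 (version not stated) and mm10 stand in the submitters' processing notes. Aligner, counter, annotation release and strand use were not given in the sources used here. Each of 2 tables compares shMOF with shCTRL, 3 libraries against 3, within 1 state. Per the file headers, the deposited columns are a mean normalized count (a signal, identical in both tables for every gene, over libraries that are not named), the authors' log2 fold change with its SE, their Wald statistic (a score, the fold change divided by its SE), their p-value and their adjusted p-value. Recomputing that score from the 2 columns left a maximum deviation of 1.53e-13.

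The LPS 3 h log2 fold change minus the unstimulated one was divided by the root of its summed squared errors. Its two-sided p came from the normal distribution and was adjusted by Benjamini-Hochberg over 12994 genes and called at 0.05 (Python 3.11.15, scipy 1.17.1, statsmodels 0.14.6). This takes both errors as uncorrelated, and the comparisons share no library. The code was checked on simulated data. In each state a gene counts as called at the authors' adjusted p under 0.05.

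The rule of the comparison, the 47 gene lists and the tests were chosen with earlier results of these data known. Lists are described by counts and medians beside all genes, with no list test. Of 1151 list entries 1097 were found by symbol and 1 by synonym, and 1085 were tested. Named genes are Kat8, Prdx1, the 12 largest called differences in each direction and the 3 smallest p of each pattern (mean normalized count of 50 or more, no clone or predicted-gene name), up to 6 members of a list by smallest p, and 5 genes alike in both states. List members named beyond these were chosen after their values were seen. Some genes that the rule names are not reported here. Coordinates, GC share, spans and exons are from GENCODE M21 (GRCm38, which is mm10), matched for 12954 genes. Alternatives were centring, other minimum means, thresholds, nulls and error scales, and a correction for GC share, span and mean level by deciles, chosen after seeing the data.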

Additional observations from a re-analysis of the deposited data

Results flagged for a closer look

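The knockdown effect differed between the states, by the test of the difference, for 3977 genes. Of the 12 genes with the largest called differences in each direction, among named genes with a mean normalized count of 50 or more, 9 were also called in each state with opposite signs in the authors' deposited tables, and these are listed for a closer look. The difference was 3.09 for Adamts4, 3.04 for Mki67, 2.80 for E2f8, 2.62 for Lhx2, 2.38 for Cxcl10 and 2.06 for Slfn9, all falling in resting cells and rising at LPS 3 h. It was -2.42 for Hp, -1.67 for Ifitm1 and -1.53 for Oxld1, which rose in resting cells and fell at LPS 3 h. Mki67 is the member of the mitotic list furthest from its median difference of 0.65. Only Mki67 and E2f8 among the 9 had an SE under 0.15 for the difference.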

How the results depend on the processing

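The counts of genes with a called difference depend on how the error is set. Centring the fold changes gave 2368 higher and 1609 lower, no minimum mean 2333 and 1592, and a minimum of 50 gave 2345 and 1590, beside 2363 and 1614. A threshold of 0.01 gave 1800 and 1023, SE widened by 25% gave 1689 and 924, and Bonferroni-Holm gave 907 and 369. Requiring a difference of at least 1 left 246 and 145, a null of at most 0.25 left 743 and 310, and the empirical null (scale 2.25) left 270 and 65. The share of calls that were higher, 59.4%, became 70.6% with the 0.25 null, 80.6% with the empirical null, 71.1% with Bonferroni-Holm and 52.97% with the correction for gene properties, which gave 1854 and 1646. Genes with opposite signs numbered 551, and 99 with a difference of at least 1, 154 under the empirical null, 368 with the 0.25 null, 435 with Bonferroni-Holm and 526 after the correction. Of 308 named genes 267 were called; 33 lost the call and 4 gained one under the correction, 196 lost it under the empirical null and 42 at 0.01. Among named genes called before or after a change of setting, Acsl4 alone changed sign, from 0.18 to -0.0743 under the correction. Mitotic genes called higher, 53, became 50 under the correction, 30 with the 0.25 null and 10 under the empirical null. The correction also moved fatty acid genes from 5 higher and 4 lower to 2 and 4, Polycomb genes from 8 and 5 to 6 and 2 and NRF2 targets from 3 and 1 to 2 and 2.

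No paired analysis was possible because the files hold no values per library, and for the same reason no library was left out. Precision is known only through the SE, whose median was 0.09 in each state. For Nos2, Il6 and Il12b the unstimulated comparison gave 99.1%, 99.3% and 99.4% of the error variance of the difference.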

Other observations

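Gene families that share a symbol stem, with at least 8 genes tested, hold groups that no list above describes. They were picked after their values were seen and have no test. Annexin genes (Anxa), whose products bind membrane phospholipids with calcium, had 6 of 9 called higher and 0 lower, with Anxa1, known from the resolution of inflammation, at 0.62 (SE 0.08) and Anxa7 at 0.37 (SE 0.07). Splicing factor genes of the SR family (Srsf) had 6 of 10 higher and 0 lower, where Srsf7 went from -0.29 to 0.33 and Srsf3 from -0.20 to 0.38 in the authors' deposited tables (differences 0.63, SE 0.08, and 0.58, SE 0.07). Their transcripts had a median GC share of 42.2%, against 49.4% over all genes. Nucleoporin genes (Nup) had 9 of 20 higher and 1 lower, with Nup54 at 0.57 (SE 0.09), Nup160 at 0.54 (SE 0.08) and Nup214 at -0.25 (SE 0.08).

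Families with lower effects at LPS 3 h included intraflagellar transport genes (Ift), which serve the primary cilium, with 0 of 14 higher and 5 lower. Among them Ift52 had a difference of -0.55 (SE 0.10) and Ift46 of -0.50 (SE 0.13). F-box genes (Fbxo), which encode substrate receptors of ubiquitin ligases, had 3 of 29 higher and 10 lower. Of all genes tested, 18.2% were called higher and 12.4% lower.

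By annotated type, 11591 protein-coding genes had 19.9% called higher and 13.3% lower. For 222 antisense genes the shares were 2.70% and 4.95%, with a median SE of the difference of 0.46 against 0.11 for protein-coding genes.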
